A study of Mus musculus with 12 samples.

Results

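Follicular helper T cells (TFH) were compared with CD4 T cells outside that gate in mice labelled WT, across all genes. The comparison used 6 of the 12 RNA-seq libraries of the series: 3 titled WT TFH and 3 titled WT Non-TFH. Splenic CD4+ cells positive for both CXCR5 and PD-1 made up the TFH gate, and CD4+ cells negative for both made up the non-TFH gate. The mice were C57BL/6, and the WT genotype is Ets1 flox/flox without a Cre, so that both groups carry floxed Ets1 alleles. The other 6 libraries, labelled KO, came from CD4-cre Ets1 flox/flox mice and are used only at the end. The labels give no age, sex or immunization, and whether each replicate was a mouse of its own is also not in them. All p-values below therefore stand for the spread between libraries, possibly only a technical one.

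TFH cells are CD4 T cells that enter B cell follicles and help B cells through germinal centres. The transcriptional repressor Bcl6 is their central regulator, and the receptor CXCR5 brings them towards the follicular chemokine CXCL13. They deliver help through CD40 ligand, ICOS and the cytokines IL-21 and IL-4, and signalling through PD-1 and SLAM family receptors shapes their contact with B cells. Most CD4 T cells outside the gate in the spleen of an unimmunized mouse are naive cells, kept quiescent by factors such as Klf2 and Foxo1 and recirculating through receptors such as CCR7 and S1PR1.

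Levels below are FPKM (fragments per kilobase of transcript, normalized to library size) after scaling the libraries to each other, listed for replicates 1, 2 and 3, and means are given ± SD with n = 3 a group unless another n is stated. Genes at 1 FPKM or more in at least 3 of the 6 libraries were tested, 10417 of 23330. Changes are differences of log2(FPKM + 1), TFH minus non-TFH, from limma with its standard error (SE), and a gene counts as changed at a Benjamini-Hochberg adjusted p under 0.05. This scale understates the change of genes at low levels. The 6 libraries fell into their 2 groups: Pearson correlations of log2 levels across genes were 0.967 to 0.972 between non-TFH libraries, 0.949 to 0.956 between TFH libraries and 0.665 to 0.678 between groups. The median gene varied more between TFH libraries (SD 0.203 on the log2 scale) than between non-TFH libraries (SD 0.0977).

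Some libraries stood apart. The table of non-TFH library 1 ended within chromosome X, so that most X-linked and all Y-linked genes have 2 non-TFH libraries. The Y-linked helicase gene Ddx3y was at 66.9 and 50.7 FPKM in non-TFH libraries 2 and 3 and at 33.4, 2.18 and 5.21 FPKM in the TFH libraries. Xist, transcribed from the inactive X chromosome, was at 1.78 and 0.160 FPKM in the same non-TFH libraries and 0, 15.7 and 13.5 FPKM in the TFH libraries. TFH libraries 2 and 3 thus carried less Y-linked and more Xist RNA than TFH library 1 and both non-TFH libraries with values. Neither gene passed the threshold of the comparison, though Ddx3y did so under 4 and Xist under 2 alternatives. A second Y-linked gene, the demethylase Kdm5d, fell (change -2.63, SE 0.79, adjusted p = 0.031), with 19.7 and 18.9 FPKM in the same non-TFH libraries and 6.42, 0.170 and 3.10 FPKM in the TFH libraries. That call was lost under 7 of 17 alternatives, with adjusted p-values up to 0.12. Leaving out chromosomes X and Y left 6852 changed genes. TFH libraries also held more unnamed assembled loci, 15119, 12338 and 25171, than non-TFH libraries, 8261, 8549 and 7942. The tables hold no read totals, and the confidence bounds of unnamed loci gave an estimated depth of 13900000 to 15500000 fragments for the non-TFH and 12000000 to 12800000 for the TFH libraries.

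Of the 10417 genes, 7028 (67.5%) changed: 3678 (35.3%) were higher and 3350 (32.2%) lower in TFH cells. Without scaling the libraries to each other, 4686 were higher and 2604 lower and the median log2 change of all genes was 0.37 in place of 0.043. Changes below are relative to the scaled level. By 2-fold or more, 2199 genes (21.1%) were higher and 2293 (22%) lower. The groups did not overlap for 7703 genes (73.9%). With so many genes changed, a list of genes is read against these shares. Groups that lie apart for a gene named below are likewise the common case, as for 73.9% of all tested genes. Of the tested genes, 717 passed the filter only through the TFH libraries and 292 only through the non-TFH libraries, and such genes had to differ. Counts and medians of gene lists below leave them out, as well as the gate genes Pdcd1 and Cxcr5, and the list's number of them is given. Where the change of such a gene is given, it is a description without a p. Among the remaining 9408 genes 64.1% changed, 31.6% higher and 32.6% lower, with a median log2 change of -0.023.

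**Figure D1:**
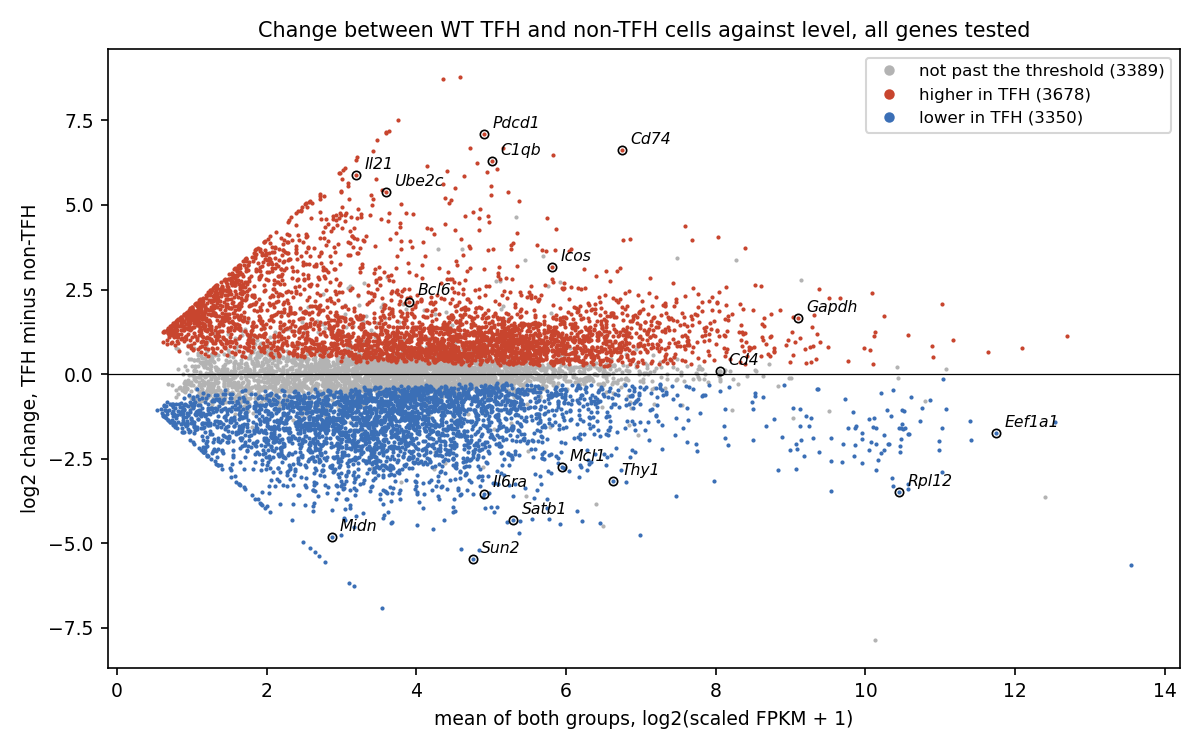
Log2 change between WT TFH and non-TFH cells (vertical axis) against the mean log2(scaled FPKM + 1) of both groups (horizontal axis), 1 point per tested gene. Red points are the 3678 genes higher in TFH cells, blue points the 3350 lower and grey points the 3389 that did not pass the threshold. Circled genes are named in the text.

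Among genes above 0 in every library, the largest rise was that of Pdcd1, which encodes PD-1 and was part of the sort. Behind it came genes of antigen-presenting cells and macrophages: H2-Ab1, Slc40a1 (the iron exporter ferroportin), Cd74, C1qb, Vcam1, H2-Aa, Fcna and C1qc. Cd83, a surface protein of activated lymphocytes and dendritic cells, and the cytokine gene Il21 were also among the 12. The joint entry of Hba-a1 and Hba-a2, which encode alpha globin, completes the 12 with a change of 6.48 (SE 1.30). It was at 68.5, 1925 and 285 FPKM in the TFH libraries, highest in TFH library 2. The 12 largest falls were of another kind. They included Sun2, a protein of the inner nuclear membrane, and Arl4c, a small GTPase. Kbtbd11, Midn, Tatdn2, Clec2d, Hnrnpul2, Prrc2a, Gm1966, Anp32a and Ttyh3 were among them as well. Of the genes named here, Il21, Midn and Tatdn2 passed the filter through 1 group only and so had to differ. Sun2 was at 188, 168 and 171 FPKM in the non-TFH libraries and 1.62, 4.10 and 3.60 FPKM in the TFH libraries, a change of -5.48 (SE 0.24, adjusted p = 3.1e-06). Arl4c was at 170.3, 159 and 190.1 FPKM in the non-TFH libraries and 4.19, 3.797 and 3.08 FPKM in the TFH libraries, a change of -5.22 (SE 0.13, adjusted p = 6.6e-07). Every non-TFH library lay far above every TFH library for both. The remaining large fall was that of Sumo2, listed in 1 entry with the microRNA gene Mir684-1. Its value of 84021 ± 9702 FPKM in non-TFH cells is that of the joint entry. It was not read as a level of Sumo2, since the entry mixes a gene with a very short RNA.

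Macrophage and B cell transcripts were much higher in the TFH libraries and are given before the T cell genes. Of 28 macrophage and monocyte markers, 26 were tested, 10 of them passing only through TFH libraries. Summed over the 23 markers with an entry of their own and a value in every library, they were at 54.6, 88.2 and 109 FPKM in the non-TFH libraries and 2014, 4149 and 2695 FPKM in the TFH libraries. Of the 16 others, 15 rose and 1, Itgam, fell (change -0.58, SE 0.21, adjusted p = 0.042), with a median of 4.85. None of those with an entry was at 0 in all libraries of a group. The fall of Itgam lost its call under 10 of the 17 alternatives that gave it a value, with adjusted p-values up to 0.44. C1qb, a chain of the first complement component, was at 2.30, 2.27 and 3.17 FPKM in the non-TFH libraries and 239.9, 404 and 228 FPKM in the TFH libraries. Slc40a1 was at 1.25, 1.25 and 1.99 FPKM in the non-TFH libraries and 185, 439 and 198 FPKM in the TFH libraries. TFH library 2 was the highest for both, and no non-TFH library came near a TFH library. Spic, the transcription factor of red pulp macrophages, rose with them from 0.731 ± 0.272 to 76.7 ± 22.1 FPKM (change 5.46, SE 0.25).

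Genes of MHC class II, which mouse T cells do not normally make, rose in the same libraries. Cd74, the invariant chain (listed in 1 entry with a microRNA gene), was at 6.80, 9.73 and 13 FPKM in the non-TFH libraries and 1198, 852 and 1117 FPKM in the TFH libraries. H2-Ab1 was at 2.64, 1.77 and 3.03 FPKM in the non-TFH libraries and 489.6, 256 and 355 FPKM in the TFH libraries, a change of 6.69 (SE 0.25, adjusted p = 1.8e-06). Of 8 members of the pathway tested beside 1 that passed only through TFH libraries, 7 rose and 1, H2-Ob, fell by 1.23. The transactivator Ciita rose from 0.301 ± 0.109 to 2.85 ± 1.495 FPKM.

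B cell markers summed to 3.06, 7.98 and 9.68 FPKM in the non-TFH libraries and 145, 191 and 153 FPKM in the TFH libraries. Of the 13 tested, 9 passed only through TFH libraries, and the other 4 rose (median 3.39). Cd79b, a signalling chain of the B cell receptor, was at 1.02, 0.977 and 1.40 FPKM in the non-TFH libraries and 20.2, 22.4 and 26.4 FPKM in the TFH libraries. Markers of other cells moved as well. Sums leave out members without a value in every library. NK cell markers summed to 36.3, 37.4 and 44.5 against 378, 487 and 392 FPKM, most of it from Fcer1g, a receptor chain that macrophages also express, at 3.69, 3.92 and 6.84 against 210.2, 298 and 208 FPKM, and from the IL-2 receptor chain Il2rb. Of the 5 NK cell markers tested, 3 rose and none fell. The joint entry of Klrb1a and the marker Klrb1c rose from 1.32 ± 0.422 to 10.2 ± 2.43 FPKM (change 2.27, SE 0.23). That of Klra1 and its neighbours did not pass the threshold (change -0.039, SE 0.46). Ncr1, a receptor restricted to NK and related innate cells, did not reach the filter and was at 0.504, 0.564 and 0.829 FPKM in the non-TFH libraries and 0, 0.334 and 0.0508 FPKM in the TFH libraries. CD8 T cell markers without Ccl5, which lacks a value in non-TFH library 3, summed to 38.2, 35.3 and 37.4 against 65.4, 49.5 and 48.0 FPKM, and the members did not share a direction. Cd8a passed only through TFH libraries and was at 0.0432, 0.0443 and 0.167 FPKM in the non-TFH libraries and 2.004, 1.42 and 1.42 FPKM in the TFH libraries. Cd8b1, the other chain of CD8, did not pass the threshold and was at 14.3, 10.6 and 9.66 FPKM in the non-TFH libraries and 10.3, 8.71 and 6.05 FPKM in the TFH libraries. Klrd1 (CD94), shared with NK cells, fell from 24.1 ± 1.84 to 8.04 ± 1.98 FPKM, while Gzmk, given further below, was close to absent from non-TFH cells. Plasma cell markers summed to 24 ± 0.295 (SD, n = 3) against 88.3 ± 25.4 FPKM. Dendritic cell markers went from 93.4 ± 5.46 to 142 ± 15.1 FPKM, although Bst2, which gave most of the non-TFH sum, fell from 91.3 ± 5.35 to 56.0 ± 2.36 FPKM. Of 8 tested, the other 7 passed only through TFH libraries. Among these, Ly6d went from 0.452 ± 0.190 to 43.3 ± 1.75 FPKM and Siglech from 0.0606 ± 0.0329 to 14.9 ± 5.12 FPKM. The sum thus hides a much larger rise of markers close to absent from non-TFH cells. Erythroid markers, in TFH libraries almost all from the joint alpha globin entry, summed to 6.11, 2.80 and 8.19 FPKM in the non-TFH libraries and 73.1, 1936 and 289.7 FPKM in the TFH libraries, highest in TFH library 2. The beta globin entries have no value in that library. Neutrophil markers stood out in non-TFH library 3 alone (18.7, 20.05 and 149 against 3.70, 25.4 and 4.79 FPKM). For each of these sums but that of neutrophils the TFH and non-TFH libraries did not overlap, where a two-sided exact permutation test of 3 against 3 libraries gives its smallest p, 0.1. The part of these cells in the changes below was not tested, and in bulk RNA fewer cells of a type and less RNA per cell cannot be told apart.

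**Figure D2:**
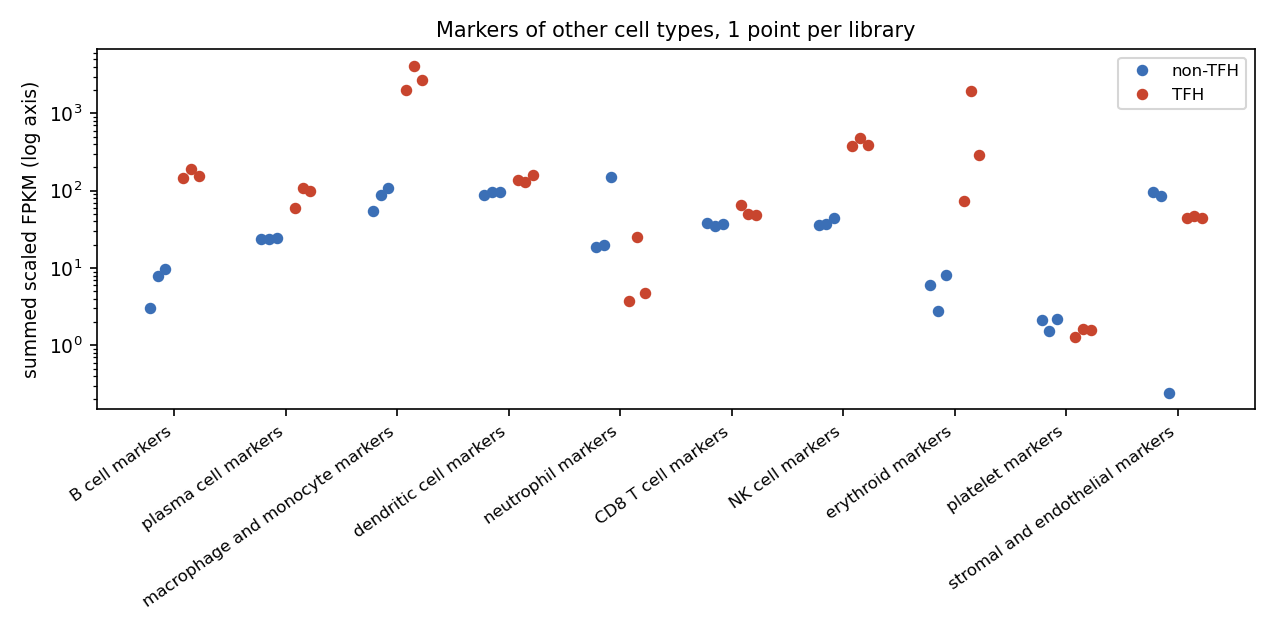
Summed scaled FPKM of marker lists of other cell types (vertical log axis), 1 point per library, non-TFH in blue and TFH in red. Macrophage markers lie between 54.6 and 109 FPKM in the non-TFH libraries and between 2014 and 4149 FPKM in the TFH libraries, and B cell markers between 3.06 and 9.68 against 145 and 191 FPKM.

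The genes of the sort gate matched the labels. Pdcd1 (mm10 chr1:94038305-94052553) was at 1.58, 1.45 and 1.61 FPKM in the non-TFH libraries and 365, 374 and 313 FPKM in the TFH libraries, a change of 7.11 (SE 0.11, adjusted p = 1.3e-07). Cxcr5 (chr9:44510342-44526514) was at 11.6, 0 and 11.9 FPKM in the non-TFH libraries and 252, 152 and 178 FPKM in the TFH libraries; non-TFH library 2 listed it at 0, and with array weights its adjusted p of 0.0089 rose to 0.083. Both changes follow from the sort. Cd4, common to both gates, was at 254, 271 and 249 FPKM in the non-TFH libraries and 292, 258 and 273 FPKM in the TFH libraries and did not pass the threshold (change 0.085, SE 0.08, adjusted p = 0.37). Ets1 itself, floxed but not deleted here, was at 402, 404 and 393 FPKM in the non-TFH libraries and 170.2, 200.4 and 212 FPKM in the TFH libraries. All 3 TFH libraries lay below the non-TFH libraries, a change of -1.04 (SE 0.10, adjusted p = 6.1e-05).

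Of the 16 T cell identity genes, 8 rose and 2 fell, with a median of 0.22 that turned to -0.13 under quantile normalization and was 0.58 without scaling. Cd3e, a chain of the T cell receptor complex, was at 235, 251 and 216 FPKM in the non-TFH libraries and 643, 659 and 649.6 FPKM in the TFH libraries, a change of 1.47 (SE 0.077, adjusted p = 5.1e-06). Thy1, a surface glycoprotein of T cells, went the other way and was at 293, 291 and 293 FPKM in the non-TFH libraries and 42.1, 27.6 and 27.3 FPKM in the TFH libraries, a change of -3.17 (SE 0.17, adjusted p = 5.2e-06). The groups were far apart for both genes. Lck and Cd6 also rose (log2 changes 0.82 and 1.16).

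Transcription factors of the TFH program were mostly higher. Of 17 tested, 3 passed only through TFH libraries, and of the other 14, 11 rose and 2 fell (median 1.75). Bcl6 (chr16:23965052-23988612) was at 6.44, 6.48 and 5.42 FPKM in the non-TFH libraries and 32.2, 33.3 and 25.8 FPKM in the TFH libraries, a change of 2.14 (SE 0.15, adjusted p = 1.7e-05). Maf, an activator of Il21 and Il4, was at 4.02, 3.02 and 3.30 FPKM in the non-TFH libraries and 42.8, 38.0 and 34.1 FPKM in the TFH libraries, a change of 3.14 (SE 0.15, adjusted p = 4.1e-06). For both, every TFH library lay well above every non-TFH library. Tox2, an HMG-box factor acting with Bcl6, was at 0.216, 0.351 and 0.0945 FPKM in the non-TFH libraries and 49.0, 67.6 and 55.9 FPKM in the TFH libraries, a change of 5.58. Ascl2, a basic helix-loop-helix factor that induces Cxcr5, was at 0.0450, 0 and 0 FPKM in the non-TFH libraries and 7.496, 13.8 and 7.62 FPKM in the TFH libraries, a change of 3.34. Both belonged to the genes that were close to absent from non-TFH cells, and their folds are set by values near 0.

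Factors present in both cell types rose as well. Batf, an AP-1 factor needed for Bcl6 and Maf expression, went from 26.5 ± 2.58 to 163 ± 22 FPKM (change 2.57, SE 0.13) and its partner Irf4 from 3.55 ± 0.0767 to 10.6 ± 2.21 FPKM (change 1.33, SE 0.18). Egr2, induced by T cell receptor signals, went from 4.77 ± 0.264 to 43.1 ± 2.91 FPKM (change 2.93, SE 0.12) and Id3, an inhibitor of E proteins, from 28.6 ± 2.81 to 173 ± 18.4 FPKM (change 2.56, SE 0.12). The octamer co-activator Pou2af1 went from 4.46 ± 0.289 to 28.9 ± 2.11 FPKM (change 2.45, SE 0.13); it is also a B cell gene. Tox and Nfatc1 rose by less, with changes of 1.98 and 1.51. Against this direction, Egr3 was at 8.17, 7.26 and 7.72 FPKM in the non-TFH libraries and 2.33, 2.64 and 2.30 FPKM in the TFH libraries, a change of -1.35 (SE 0.15, adjusted p = 1.8e-04), and the zinc finger gene Zfp831 fell from 19.5 ± 2.98 to 5.87 ± 0.430 FPKM (change -1.57, SE 0.15). Egr2 and Egr3, a pair of related factors, thus moved in opposite directions.

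Several molecules of B cell help were close to absent from non-TFH cells and passed the filter only through the TFH libraries. Il21 (chr3:37222759-37232636) was at 0.197, 0.0890 and 0.264 FPKM in the non-TFH libraries and 77.8, 59.8 and 70.6 FPKM in the TFH libraries, a change of 5.89. Il4 was at 0, 0.331 and 0.558 FPKM in the non-TFH libraries and 36.0, 47.2 and 14.9 FPKM in the TFH libraries, a change of 4.58. TFH library 3 was the lowest of the TFH libraries for Il4 but still far above all non-TFH libraries. Sostdc1, a secreted antagonist of BMP and Wnt signals that marks TFH cells, was listed at 0 in all 3 non-TFH libraries and was at 59.0, 118 and 69.9 FPKM in the TFH libraries. Angptl2, a secreted angiopoietin-like protein, was at 0.136, 0.218 and 0.256 FPKM in the non-TFH libraries and 59.9, 55.5 and 62.6 FPKM in the TFH libraries, a change of 5.65.

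Of 25 genes of this list tested, 6 passed only through TFH and 1 only through non-TFH libraries. Of the other 18, 12 rose and 2 fell, with a median of 2.04. Icos, the co-stimulatory receptor that sustains TFH cells, was at 17.4, 17.7 and 16.95 FPKM in the non-TFH libraries and 239.7, 132 and 141 FPKM in the TFH libraries, a change of 3.17 (SE 0.22, adjusted p = 1.6e-05). Sh2d1a, the SLAM adaptor SAP, was at 48.9 and 52.7 FPKM in the 2 non-TFH libraries with a value and 419, 357 and 338 FPKM in the TFH libraries. Izumo1r, the folate receptor family gene that encodes FR4, was at 69.7, 72.1 and 58.8 FPKM in the non-TFH libraries and 432, 465 and 422 FPKM in the TFH libraries, a change of 2.70 (SE 0.10, adjusted p = 1.8e-06). None of these overlapped between groups. Cd200, S1pr2, the sphingosine receptor that holds cells in the germinal centre, and Slamf6 rose by 3.02, 3.25 and 2.03. Cd40lg rose from 64.3 ± 2.47 (SD, n = 2) to 157 ± 8.65 FPKM (n = 3), a change of 1.27 (SE 0.10, adjusted p = 6.5e-05).

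The receptor for IL-6 went against the list. Il6ra was at 105, 96.6 and 95.8 FPKM in the non-TFH libraries and 10.9, 7.84 and 5.10 FPKM in the TFH libraries, a change of -3.54 (SE 0.23, adjusted p = 1.2e-05). Plxnd1, a semaphorin receptor, fell from 2.67 ± 0.248 to 0.332 ± 0.0355 FPKM (change -1.46, SE 0.16) and passed the filter only through the non-TFH libraries. Btla, an inhibitory receptor, fell from 90.9 ± 10.1 to 59.3 ± 6.29 FPKM (change -0.61, SE 0.12), but without scaling the libraries its adjusted p was 0.11.

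**Figure D3:**
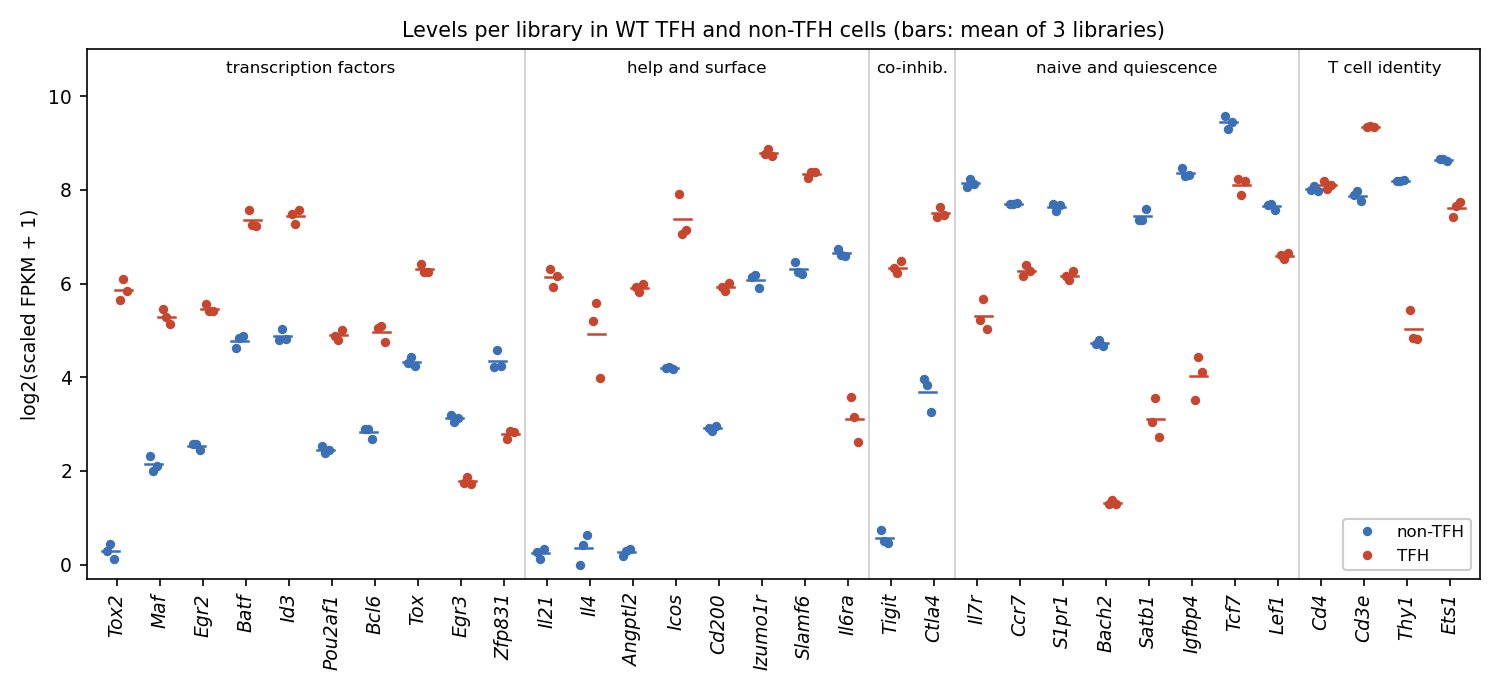
Levels as log2(scaled FPKM + 1) (vertical axis) in each of 3 non-TFH (blue) and 3 TFH (red) libraries, with bars at the mean of the log values. Tox2, Il21, Il4, Angptl2 and Tigit lie near 0 in all non-TFH libraries, the groups overlap for Cd4, and the naive genes, Il6ra, Egr3, Zfp831, Thy1 and Ets1 are lower in every TFH library.

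Genes of naive and quiescent T cells were mostly lower. Of 26 tested, 19 fell and 3 rose, with a median of -1.45. The largest falls were those of the actin cross-linker Actn1, of Igfbp4, which binds insulin-like growth factors, of the chromatin organizer Satb1 and of Als2cl. Igfbp4 was at 353, 315 and 316 FPKM in the non-TFH libraries and 10.3, 20.7 and 16.2 FPKM in the TFH libraries, a change of -4.34 (SE 0.22, adjusted p = 4.6e-06). Satb1 was at 163, 164 and 190.3 FPKM in the non-TFH libraries and 7.27, 10.8 and 5.63 FPKM in the TFH libraries, a change of -4.32 (SE 0.21, adjusted p = 4.0e-06). Actn1 went from 186 ± 26.0 to 8.32 ± 2.01 FPKM and Als2cl from 239 ± 14.1 to 11.4 ± 2.80 FPKM, again with no overlap between groups.

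The receptors of recirculation and survival fell with them. Il7r, the receptor for the survival cytokine IL-7, was at 267, 299.9 and 278 FPKM in the non-TFH libraries and 36.3, 50.2 and 31.6 FPKM in the TFH libraries, a change of -2.83 (SE 0.17, adjusted p = 7.9e-06). Ccr7 and S1pr1 fell by 1.43 and 1.47, from 207 ± 2.58 to 76.3 ± 6.31 and from 198 ± 10.9 to 71.1 ± 4.46 FPKM. The factors that drive them fell too: Klf2 went from 105 ± 10.9 to 40.9 ± 4.37 FPKM (change -1.34, SE 0.12) and Foxo1 from 77.9 ± 6.55 to 14.6 ± 0.648 FPKM (change -2.34, SE 0.11). Bach2, a repressor of effector genes, was at 25.2, 26.7 and 24.4 FPKM in the non-TFH libraries and 1.44, 1.59 and 1.45 FPKM in the TFH libraries, a change of -3.40 (SE 0.14, adjusted p = 2.2e-06). Tcf7 and Lef1, which take part both in naive T cells and in the start of TFH differentiation, stayed high but fell from 697 ± 64.0 to 276 ± 34.5 and from 199.7 ± 8.29 to 95.4 ± 3.91 FPKM, changes of -1.34 and -1.06. Btg2, an anti-proliferative gene that is also an immediate early gene, went against the list, from 63.3 ± 4.51 to 131 ± 34.9 FPKM.

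Genes known to oppose TFH differentiation did not move as a group. Of 15 tested, 5 rose (33.3%) and 7 fell (46.7%), beside 31.6% and 32.6% of all genes that did not pass through 1 group only. The median of -0.16 changed sign without scaling (0.18) and after adjustment for transcript length (0.038). Those that fell include Klf2, Foxo1, Il7r, S1pr1, Runx3 and Socs3. Those that rose include Tbx21, Id2, Gpr183 and Il2rb, the IL-2 receptor chain whose signals through STAT5 restrain Bcl6, which went from 29.4 ± 1.25 to 175 ± 12.9 FPKM (change 2.53, SE 0.095). Prdm1, which encodes the Bcl6 antagonist Blimp-1, was at 2.24, 2.26 and 2.18 FPKM in the non-TFH libraries and 3.26, 7.67 and 3.88 FPKM in the TFH libraries. Its change of 0.81 (SE 0.28, adjusted p = 0.035) lost the call under 4 of 17 alternatives, 3 of them leaving out 1 non-TFH library each, with adjusted p-values up to 0.085.

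Inhibitory receptors were mostly higher. Of 15 tested, 1 is the gate gene Pdcd1 and 5 passed only through TFH libraries. Of the other 9, 6 rose and 1, Btla, fell (median 1.62). Tigit, a receptor for nectins, was at 0.673, 0.428 and 0.369 FPKM in the non-TFH libraries and 79.0, 73.3 and 88.7 FPKM in the TFH libraries, a change of 5.77. Ctla4, which competes with Cd28 for B7 ligands, was at 14.6, 13.2 and 8.59 FPKM in the non-TFH libraries and 169, 198 and 176 FPKM in the TFH libraries, a change of 3.82 (SE 0.19, adjusted p = 4.2e-06). Both were far above the non-TFH level in every TFH library. Nt5e (CD73), an enzyme that makes inhibitory adenosine, rose from 12.5 ± 0.313 to 122 ± 9.87 FPKM (change 3.18, SE 0.10). Lag3 rose from 1.13 ± 0.260 to 5.53 ± 1.17 and Havcr2 (TIM-3) from 0.0535 ± 0.0489 to 4.80 ± 1.88 FPKM, both to low levels, and Cd274 (PD-L1) did not pass the threshold (change 0.28, SE 0.19, adjusted p = 0.23).

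Co-stimulatory receptors moved both ways: beside 1 that passed only through TFH libraries, 5 of 9 rose (55.6%) and 3 fell (33.3%). Of all genes that did not pass through 1 group only, 31.6% rose and 32.6% fell. Tnfrsf9 (4-1BB) was at 4.04, 3.05 and 3.29 FPKM in the non-TFH libraries and 59.9, 98.6 and 78.7 FPKM in the TFH libraries, a change of 4.14 (SE 0.20, adjusted p = 4.0e-06), and Tnfrsf18 (GITR) rose from 38.5 ± 5.71 to 191 ± 41.8 FPKM. Tnfrsf14 (HVEM), the ligand of Btla, fell from 45.4 ± 3.34 to 8.79 ± 1.82 FPKM (change -2.26, SE 0.16). Of 10 TNF family ligands beside 1 that passed only through TFH libraries, 7 rose and 1 fell (median 1.53, or 0.95 after adjustment for transcript length). Tnfsf8 (CD30 ligand) and Tnfsf11 (RANKL) rose by 2.22 and 3.15. Lta did not pass the threshold: it was at 17.2, 17.04 and 16.8 FPKM in the non-TFH libraries and 467, 26.6 and 18.6 FPKM in the TFH libraries, a rise carried by TFH library 1.

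Among SLAM receptors and adaptors, 3 of 10 passed only through TFH libraries, and 4 of the other 7 rose. The kinase Fyn, which acts downstream of SAP, fell from 142 ± 9.91 to 58.9 ± 7.91 FPKM (change -1.26, SE 0.12), while Sh2d1a and Slamf6 rose. Ly9 did not pass the threshold (change -0.22, SE 0.13, adjusted p = 0.19).

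Of 24 cytokine genes looked up, 14 were tested and 12 of these passed only through TFH libraries, being under 1 FPKM in every non-TFH library. The other 2 were well expressed in both groups: Il16, a chemoattractant of CD4 cells, rose from 126 ± 20.4 to 241 ± 37.7 FPKM (change 0.93, SE 0.15) and Tgfb1 fell. Ifng, the type 1 cytokine, was at 0.381, 0.968 and 0.765 FPKM in the non-TFH libraries and 65.9, 44.1 and 39.9 FPKM in the TFH libraries, a change of 4.88. Penk, which encodes the opioid precursor proenkephalin, was at 0.421, 0.107 and 0.115 FPKM in the non-TFH libraries and 44.0, 63.4 and 47.0 FPKM in the TFH libraries, a change of 5.43. Il10 was at 0.173, 0.293 and 0 FPKM in the non-TFH libraries and 22.9, 11.6 and 10.7 FPKM in the TFH libraries, a change of 3.73. TFH library 1 was the highest for Ifng and Il10 and library 2 for Penk. Spp1 (osteopontin), also made by macrophages, was at 8.34, 37.0 and 6.62 FPKM in TFH cells and highest in library 2, which was also the highest in macrophage markers.

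Beside 3 chemokine genes that passed only through TFH libraries, the other 5 rose. Ccl4 was at 0, 0 and 1.08 FPKM in the non-TFH libraries and 37.1, 18.7 and 14.6 FPKM in the TFH libraries, and Xcl1 at 1.31, 0.449 and 2.16 FPKM in the non-TFH libraries and 26.2, 25.8 and 13.6 FPKM in the TFH libraries. Cxcl10, a ligand of CXCR3, was at 0.284, 0.579 and 0.312 FPKM in the non-TFH libraries and 70.3, 46.3 and 37.2 FPKM in the TFH libraries, a change of 5.19. Ccl4 and Cxcl10 were highest in TFH library 1. Of the homing receptors, 1 is the gate gene Cxcr5 and 3 passed only through TFH libraries. Of the other 12, 6 rose (50%) and 4 fell (33.3%), beside 31.6% and 32.6% of all genes that did not pass through 1 group only. Cxcr3, the receptor of type 1 cells, was at 4.59 and 3.66 FPKM in 2 non-TFH libraries and 144, 142 and 137 FPKM in the TFH libraries, a change of 4.80 (SE 0.13, adjusted p = 1.8e-06). Ccr8 rose from 0.985 ± 0.593 to 39.5 ± 17.2 FPKM and Gpr183 (EBI2), which guides cells to the follicle border, from 31.0 ± 10.7 to 99.0 ± 28.4 FPKM.

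Integrin subunits split. Of 11 that did not pass through 1 group only, 5 rose (45.5%) and 5 fell (45.5%), beside 31.6% and 32.6% of all such genes. A further 2 passed only through TFH and 2 only through non-TFH libraries. The beta 1 chain Itgb1 was at 12.6, 15.0 and 13.6 FPKM in the non-TFH libraries and 135, 182 and 253 FPKM in the TFH libraries, a change of 3.65 (SE 0.22, adjusted p = 8.1e-06). The alpha 6 chain Itga6, a partner of beta 1 in laminin receptors, was at 37.7, 39.7 and 37.7 FPKM in the non-TFH libraries and 2.75, 4.004 and 2.10 FPKM in the TFH libraries, a change of -3.34 (SE 0.19, adjusted p = 7.2e-06). Itgb3 (beta 3) fell from 38.3 ± 0.356 to 3.35 ± 0.126 FPKM, and the groups did not overlap for any of these 3 chains.

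Genes of other helper subsets were higher in the TFH gate. Of 19 type 1 genes, 3 passed only through TFH libraries, and of the other 16, 12 rose and 2 fell (median 1.70). Tbx21, the factor T-bet, was at 0.862, 1.53 and 1.06 FPKM in the non-TFH libraries and 10.1, 10.7 and 10.9 FPKM in the TFH libraries, a change of 2.44 (SE 0.18, adjusted p = 2.1e-05). The falls were those of Il18r1, from 20.9 ± 0.734 to 4.75 ± 3.57 FPKM, and Runx3, from 15.3 ± 0.614 to 5.19 ± 0.436 FPKM. Type 1 genes such as Nkg7 and Ccl5 are also made by NK and CD8 T cells. The NK cell markers that passed the threshold rose, while Ncr1, under the filter, was lower. Those of CD8 T cells did not share a direction. The part of NK and CD8 T cells was not tested.

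For type 2 genes, 3 of 8 passed only through TFH libraries, and 3 of the other 5 rose. Gata3, the type 2 factor, was at 13.6, 14.1 and 14.4 FPKM in the non-TFH libraries and 30.0, 29.1 and 29.8 FPKM in the TFH libraries, a change of 1.03 (SE 0.10, adjusted p = 1.0e-04) that is small beside that of Il4. Il4ra, the IL-4 receptor chain, fell from 79.9 ± 13.7 to 22.4 ± 2.65 FPKM (change -1.79, SE 0.15). All 4 type 17 genes that did not pass through 1 group only rose, among them Rora, from 1.25 ± 0.116 to 19.02 ± 1.80 FPKM (change 3.15, SE 0.15).

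Regulatory T cell genes rose: beside 5 that passed only through TFH libraries, 11 of 15 were higher and 1, Tgfb1, lower (median 2.27). Foxp3 was at 13.9, 14.2 and 11.5 FPKM in the non-TFH libraries and 41.0, 58.8 and 68.6 FPKM in the TFH libraries, a change of 1.98 (SE 0.20, adjusted p = 9.6e-05); the value is that of a joint entry led by Foxp3. Ikzf2 (Helios) was at 3.15, 3.18 and 3.10 FPKM in the non-TFH libraries and 84.3, 71.3 and 86.1 FPKM in the TFH libraries, a change of 4.29 (SE 0.12, adjusted p = 7.8e-07). Nrp1 (neuropilin 1, joint entry) rose from 2.02 ± 0.121 to 61.4 ± 9.99 FPKM. Foxp3+ follicular regulatory cells also carry CXCR5 and PD-1, so the gate can hold them. Tgfb1 fell from 37.5 ± 2.12 to 24.6 ± 5.03 FPKM, with an adjusted p of 0.18 when the libraries were not scaled.

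Cytotoxic genes did not rise together. Beside 2 that passed only through TFH libraries, 6 of 12 rose (50%) and 3 fell (25%). Of all genes that did not pass through 1 group only, 31.6% rose and 32.6% fell. Gzmk (granzyme K), 1 of the 2 that passed only through TFH libraries, was at 0.109, 0.334 and 0.239 FPKM in the non-TFH libraries and 45.9, 27.9 and 27.3 FPKM in the TFH libraries, a change of 4.78. Prf1 (perforin) was at 11.9, 11.3 and 11.6 FPKM in the non-TFH libraries and 1.39, 3.25 and 1.99 FPKM in the TFH libraries, a change of -2.01 (SE 0.23, adjusted p = 1.8e-04), with every TFH library below the non-TFH libraries.

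Markers of activation and memory were higher in TFH cells. Beside 1 that passed only through TFH libraries, 20 of 25 rose and 3 fell (median 2.46). Cd44, the adhesion receptor that marks antigen-experienced cells, was at 8.23, 8.90 and 8.52 FPKM in the non-TFH libraries and 63.8, 71.3 and 60.9 FPKM in the TFH libraries, a change of 2.79 (SE 0.11, adjusted p = 2.2e-06). Cd69 was at 43.7, 50.5 and 46.3 FPKM in the non-TFH libraries and 237, 289.9 and 234 FPKM in the TFH libraries, a change of 2.41 (SE 0.11, adjusted p = 3.7e-06). S100a6 and Anxa2, calcium-binding proteins that macrophages also make, rose by 5.30 and 4.68. Il2ra (CD25) did not pass the threshold (change 0.55, SE 0.27, adjusted p = 0.11).

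The immediate early genes, switched on within minutes of a receptor signal, rose in large part. Of 36 tested, 4 passed only through TFH and 1 only through non-TFH libraries, and of the other 31, 23 rose and 5 fell (median 1.79). Junb was at 153, 117 and 170.4 FPKM in the non-TFH libraries and 1008, 905 and 816 FPKM in the TFH libraries, a change of 2.63 (SE 0.15, adjusted p = 6.8e-06). Fos was at 147, 74.8 and 122 FPKM in the non-TFH libraries and 645, 648 and 506 FPKM in the TFH libraries, a change of 2.43 (SE 0.24, adjusted p = 1.2e-04). Rgs1, a regulator of G protein signalling, was at 11.7, 13.4 and 11.6 FPKM in the non-TFH libraries and 254, 306 and 213 FPKM in the TFH libraries, a change of 4.28 (SE 0.15, adjusted p = 1.4e-06). The phosphatase gene Dusp1 rose from 14.9 ± 1.72 to 209 ± 79.1 FPKM, whereas Dusp2, which acts on the same kinases, fell from 82.3 ± 8.32 FPKM (n = 3) to 21.6 and 21.2 FPKM in the 2 TFH libraries with a value. Nr4a1, a reporter of T cell receptor signals, rose from 19.1 ± 0.885 to 48.7 ± 3.12 FPKM (change 1.30, SE 0.11).

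Genes of proximal T cell receptor signalling split evenly. Of 31, 11 rose (35.5%) and 12 fell (38.7%), beside 31.6% and 32.6% of all genes that did not pass through 1 group only. The median of -0.011 turned to 0.34 without scaling and to 0.17 after adjustment for transcript length. The phospholipase Plcg1 was at 109, 99.8 and 99.6 FPKM in the non-TFH libraries and 27.1, 27.9 and 24.9 FPKM in the TFH libraries, a change of -1.91 (SE 0.10, adjusted p = 4.3e-06), and the ubiquitin ligase Cbl fell from 55.2 ± 2.69 to 12.7 ± 0.493 FPKM (change -2.03, SE 0.10). The phosphatase Ptpn22 rose from 65.0, 67.0 and 63.7 FPKM to 224 and 216 FPKM in the 2 TFH libraries with a value. Lat did not pass the threshold (change -0.36, SE 0.14, adjusted p = 0.051).

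Cytokine receptors and their signalling genes did not share a direction either. Beside 2 that passed only through TFH libraries, 8 of 22 cytokine receptors rose (36.4%) and 7 fell (31.8%). Those shares are close to the 31.6% and 32.6% of all genes that did not pass through 1 group only. The median of the receptors, 0.13, turned to -0.16 under quantile normalization. Il1r2, a decoy receptor for IL-1 known from follicular T cells, was at 0, 0.0567 and 0.0611 FPKM in the non-TFH libraries and 33.7, 64.0 and 22.4 FPKM in the TFH libraries, a change of 5.17. For the STAT and SOCS genes, 5 of 17 rose (29.4%) and 4 fell (23.5%), beside 1 that passed only through non-TFH libraries. Their median of -0.13 turned to 0.22 without scaling and to 0.20 after length adjustment. Socs3, the feedback inhibitor of gp130 signals, fell from 62.7 ± 5.78 to 13.3 ± 1.5 FPKM (change -2.15, SE 0.13), and Stat4, the mediator of IL-12 signals, rose from 40.8 ± 2.43 to 110.1 ± 8.95 FPKM (change 1.41, SE 0.10).

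Of the ETS family, to which the floxed gene belongs, 10 members did not pass through 1 group only. Among these 1 rose and 4 fell (median -0.48, or -0.14 without scaling and -0.24 after length adjustment). The 3 that passed only through TFH libraries were the myeloid and B cell members Spi1, Spib and Spic, and Spi1 rose from 0.607 ± 0.187 to 13.3 ± 2.51 FPKM. The repressor Erf, which passed only through non-TFH libraries, was at 7.58, 13.1 and 15.2 FPKM in the non-TFH libraries and 0.0902, 0.217 and 0.0767 FPKM in the TFH libraries, a change of -3.47. Elk4 was at 39.6, 41.4 and 41.3 FPKM in non-TFH libraries and listed at 0 in all 3 TFH libraries. Among E proteins and their inhibitors, Id2 rose from 55.6 ± 10.2 to 213 ± 44.1 FPKM beside Id3, while the E protein genes Tcf3 and Tcf12 fell by 1.51 and 1.04. A further E protein gene, Tcf4, went the other way, from 0.528 ± 0.202 to 4.80 ± 1.47 FPKM, and passed only through TFH libraries. The E protein genes thus did not share a direction.

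Genes of cell division were much higher in TFH cells. Of 31 mitosis genes tested, 13 passed only through TFH libraries, and of the other 18, 16 rose and 1, the tubulin gene Tubb5, fell by 0.79 (median 2.94). Of 30 S phase genes, 6 passed only through TFH libraries, and of the other 24, 21 rose and none fell (median 1.74). Mitotic genes are known to share a pair of promoter elements, the CCAAT box and the cell cycle homology region (CHR, TTTGAA). The promoters printed here are those of the 5 mitosis genes with the largest rises among genes with a single RefSeq promoter whose printed stretch holds TTTGAA. They come from RefSeq for build GRCm38.p6, from 120 bases before to 20 bases after the annotated start, on the strand of the gene. Capitals mark TTTGAA or its reverse complement TTCAAA, and CCAAT or its reverse complement ATTGG.
Ube2c: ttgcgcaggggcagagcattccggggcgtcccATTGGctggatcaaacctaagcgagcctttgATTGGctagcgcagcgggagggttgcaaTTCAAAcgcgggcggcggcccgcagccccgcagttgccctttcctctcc
Cdc20: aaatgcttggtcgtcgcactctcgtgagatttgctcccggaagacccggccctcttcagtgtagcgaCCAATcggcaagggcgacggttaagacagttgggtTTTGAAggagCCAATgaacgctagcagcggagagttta
Ccnb2: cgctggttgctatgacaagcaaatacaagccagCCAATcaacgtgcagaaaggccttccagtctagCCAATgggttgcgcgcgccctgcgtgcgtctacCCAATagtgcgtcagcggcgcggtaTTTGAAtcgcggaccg
Cdk1: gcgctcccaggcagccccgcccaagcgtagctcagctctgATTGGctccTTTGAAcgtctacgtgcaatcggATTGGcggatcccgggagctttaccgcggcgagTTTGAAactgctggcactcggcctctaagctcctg
Cdca8: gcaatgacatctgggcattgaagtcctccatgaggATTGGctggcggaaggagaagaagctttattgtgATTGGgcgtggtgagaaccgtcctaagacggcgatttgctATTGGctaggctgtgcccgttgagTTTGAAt
These lie at chr2:164769809-164769948 (plus strand), chr4:118437324-118437463 (minus strand), chr9:70421535-70421674 (minus strand), chr10:69352893-69353032 (minus strand) and chr4:124936898-124937037 (minus strand). Beside the TTTGAA they were chosen for, each holds at least 2 CCAAT motifs on either strand. Over windows of 300 bases (250 before to 50 after the start), TTTGAA was in 17.9% of all 32851 promoters on either strand, in 20 of 28 promoters of the mitosis genes (71.4%), in 12.1% of S phase, 6.67% of naive and 16% of TFH help promoters. CCAAT was in 37.4% of all promoters and in 82.1% of the mitosis promoters, and both motifs were in 6.95% and 67.9%. The 2 motifs do not overlap in the printed stretches. The matches are letters in a window and not measured sites, and genes chosen for their role in mitosis need not stand for other genes that rose.

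Ube2c, the ubiquitin-conjugating enzyme of the anaphase-promoting complex, was at 0.615, 0.806 and 1.16 FPKM in the non-TFH libraries and 76.6, 57.6 and 97.1 FPKM in the TFH libraries, a change of 5.37 (SE 0.22, adjusted p = 2.2e-06). Cdc20, the activator of that complex, was listed at 0 in all 3 non-TFH libraries and at 45.9, 24.3 and 32.3 FPKM in the TFH libraries. Cdk1, the mitotic kinase, was at 0.405, 0.242 and 0.261 FPKM in the non-TFH libraries and 46.3, 10.4 and 12.7 FPKM in the TFH libraries. TFH library 1 was highest for Cdk1 while library 3 was highest for Ube2c, and no non-TFH library passed 1.2 FPKM for either. The B cyclin Ccnb2 rose from 1.19 ± 0.473 to 35.5 ± 11.4 FPKM and the chromosomal passenger Cdca8 from 1.19 ± 0.248 to 32.1 ± 7.83 FPKM, and both were highest in TFH library 3. The proliferation marker Mki67 was at 0.996, 0.901 and 1.37 FPKM in the non-TFH libraries and 11.4, 10.9 and 8.76 FPKM in the TFH libraries, a change of 2.44 (SE 0.19, adjusted p = 2.4e-05). Among S phase genes, the ribonucleotide reductase subunit Rrm2 was at 1.99, 1.76 and 2.12 FPKM in the non-TFH libraries and 81.9, 61.0 and 96.0 FPKM in the TFH libraries, a change of 4.75 (SE 0.18, adjusted p = 2.0e-06), and Cdt1 did not pass the threshold (change 0.21, SE 0.15, adjusted p = 0.26). Of 82 histone genes looked up, 52 were tested, and 28 of these passed only through TFH libraries. Of the other 24, 17 rose and 2 fell. The S phase histone gene Hist1h2ac was at 0.254, 0.237 and 0.152 FPKM in the non-TFH libraries and 41.1, 43.6 and 68.6 FPKM in the TFH libraries. Such transcripts lack poly(A) tails, and the libraries were made with a kit for mRNA.

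Glycolysis genes rose: beside 1 that passed only through TFH libraries, 11 of 17 were higher and 2 lower (median 1.24). Hif1a, the hypoxia-inducible factor, was at 26.6, 25.2 and 21.6 FPKM in the non-TFH libraries and 171, 264 and 234 FPKM in the TFH libraries, a change of 3.12 (SE 0.17, adjusted p = 6.1e-06). Gapdh was at 306, 318 and 303 FPKM in the non-TFH libraries and 1101, 883 and 934 FPKM in the TFH libraries, a change of 1.65 (SE 0.093, adjusted p = 6.9e-06). Pdk1, which restrains the oxidation of pyruvate in the mitochondrion and is a known target of that factor, went the other way and was at 101, 103 and 97.0 FPKM in the non-TFH libraries and 9.74, 12.02 and 13.8 FPKM in the TFH libraries, a change of -2.99 (SE 0.14, adjusted p = 3.3e-06). The groups were apart for all 3 genes. Tpi1, Pgam1 and Ldha rose by 2.34, 2.05 and 1.41.

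Nuclear genes for oxidative phosphorylation subunits rose in 68 of 77 cases and fell in 2 (median 1.27). Cox8a, a subunit of complex IV, was at 137, 113 and 119.6 FPKM in the non-TFH libraries and 577, 537 and 493 FPKM in the TFH libraries, a change of 2.11 (SE 0.10, adjusted p = 4.0e-06). Cox7a2l, which takes part in joining respiratory complexes, was at 319.6, 330.3 and 328 FPKM in the non-TFH libraries and 90.2, 91.3 and 95.7 FPKM in the TFH libraries, a change of -1.81 (SE 0.072, adjusted p = 2.1e-06). Proteasome subunit genes rose in 34 of 37 cases and none fell (median 1.08), with Psmb2 at 64.5, 66.4 and 65.2 FPKM in the non-TFH libraries and 262, 253 and 244 FPKM in the TFH libraries. Heat shock and chaperone genes rose in 15 of 16 cases and none fell (median 0.84). Hspa5 (BiP), the chaperone of the endoplasmic reticulum, was at 137, 147 and 128 FPKM in the non-TFH libraries and 491, 556 and 469 FPKM in the TFH libraries, a change of 1.87 (SE 0.10, adjusted p = 4.5e-06).

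Genes of the cytoplasmic ribosome fell. Of 76 ribosomal protein genes beside 1 that passed only through TFH libraries, 70 fell, 2 rose and 4 did not pass, with a median of -1.77. Rpl12 was at 4694, 4650.0 and 4662 FPKM in the non-TFH libraries and 452, 418 and 383 FPKM in the TFH libraries, a change of -3.48 (SE 0.073, adjusted p = 4.7e-07). Rps24 was at 4133, 6460.1 and 4312 FPKM in the non-TFH libraries and 493, 359.9 and 543 FPKM in the TFH libraries, a change of -3.41 (SE 0.22, adjusted p = 1.7e-05). The elongation factor gene Eef1a1, which shares their translational control, was at 6242, 6253 and 6284 FPKM in the non-TFH libraries and 1900.0, 1964 and 1750.3 FPKM in the TFH libraries, a change of -1.74 (SE 0.06, adjusted p = 1.4e-06). All 3 were several-fold lower in every TFH library. The ribosomal-like gene Rps27l, a p53 target, went against them from 48.4 ± 3.43 to 216 ± 22.2 FPKM (change 2.13, SE 0.11). Many ribosomal protein genes have near-identical pseudogenes, so their reads could have been split, which was not tested. Ribosome biogenesis genes fell in 15 of 30 cases and rose in 2 (median -0.35, or -0.018 without scaling); Npm1 was at 501, 503 and 501 FPKM in the non-TFH libraries and 323, 312 and 306 FPKM in the TFH libraries.

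Transcript length moved with these changes. Across 76 ribosomal protein genes the median annotated length was 926 bases, and short transcripts as a whole were higher in TFH cells. Over the 10048 tested genes with a length (96.5%), log2 change and length had a Spearman correlation of -0.35 across genes, which are not independent replicates. From the shortest to the longest of 5 length groups, the median log2 change went from 0.74 through 0.30, 0.061 and -0.23 to -0.69. The correlation with GC content was -0.059. In an adjustment for length added after the data were seen, the fall of the ribosomal protein genes grew to a median of -2.54. The median of the oxidative phosphorylation genes dropped to 0.53, with 44 higher and 9 lower, and that of the proteasome genes to 0.52, with 26 higher and 2 lower. Medians of the mitosis, naive and TFH transcription factor lists were 2.84, -1.58 and 1.85. What else moved with transcript length was not tested.

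**Figure D4:**
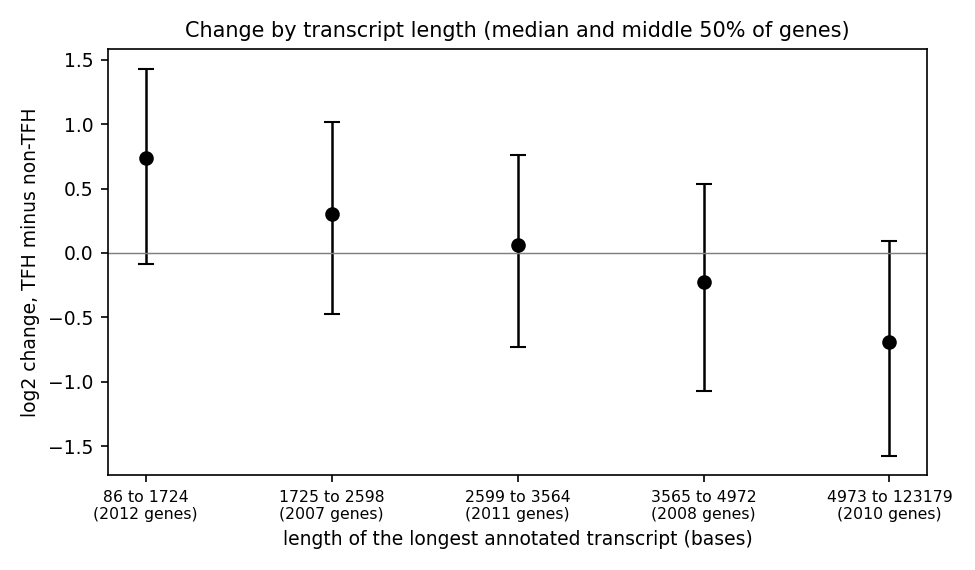
Log2 change between WT TFH and non-TFH cells (vertical axis) in 5 groups of genes by the length of their longest annotated transcript (horizontal axis), with points at the median and bars over the middle 50% of genes. The median goes from 0.74 in the shortest to -0.69 in the longest group.

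Cholesterol synthesis genes did not share a direction, and 2 passed only through non-TFH libraries. Of the other 19, 6 rose (31.6%) and 3 fell (15.8%), beside 31.6% and 32.6% of all genes that did not pass through 1 group only. Their median of 0.19 turned to -0.017 after length adjustment. Ebp, a sterol isomerase of the pathway, rose from 13.4 ± 1.07 to 38.8 ± 6.41 FPKM. Fdft1 (squalene synthase), 1 of those 2, was at 6.27, 5.61 and 6.07 FPKM in the non-TFH libraries and is listed at 0 in all 3 TFH libraries. Among nucleotide and NAD enzymes, Cd38 and Entpd1 passed only through TFH libraries, and of the other 10, 6 rose and none fell. Cd38, an enzyme that consumes NAD, was at 0.521, 0.563 and 0.645 FPKM in the non-TFH libraries and 32.2, 57.4 and 38.5 FPKM in the TFH libraries.

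Of 26 interferon response genes, 9 fell (34.6%, beside 32.6% of all such genes) and 5 rose (19.2%, beside 31.6%), with a median of -0.20 that turned to 0.15 without scaling. Oas2, an antiviral nucleotide synthetase, was at 46.6, 43.9 and 28.0 FPKM in the non-TFH libraries and 2.05, 2.02 and 3.73 FPKM in the TFH libraries, a change of -3.49 (SE 0.26, adjusted p = 2.2e-05), and the RNA sensor gene Ddx58 fell from 43.0 ± 4.29 to 16.99 ± 1.97 FPKM. Isg15 did not pass the threshold (change -0.30, SE 0.37, adjusted p = 0.5).

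Genes of survival and death moved both ways, 7 rising (38.9%) and 8 falling (44.4%) of 18, beside 1 that passed only through each group. Of all genes that did not pass through 1 group only, 31.6% rose and 32.6% fell. Mcl1, an inhibitor of apoptosis that T cells depend on, was at 158, 173 and 139.9 FPKM in the non-TFH libraries and 17.9, 29.1 and 21.6 FPKM in the TFH libraries, a change of -2.75 (SE 0.18, adjusted p = 1.2e-05). Pmaip1 (Noxa), which binds Mcl1, passed only through TFH libraries and was at 0.674, 0.536 and 0.735 FPKM in the non-TFH libraries and 35.2, 27.2 and 34.4 FPKM in the TFH libraries, a change of 4.33. Bak1, an executioner held in check by Mcl1, passed only through non-TFH libraries and was at 21.1, 20.3 and 20.8 FPKM in the non-TFH libraries and 0.398, 0.567 and 0.531 FPKM in the TFH libraries. Pmaip1 was high and the other two low in every TFH library.

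Of actin regulators, 11 of 23 rose (47.8%) and 6 fell (26.1%), beside 31.6% and 32.6% of all genes that did not pass through 1 group only. Capg, which caps actin filaments, went up from 20.8 ± 1.07 to 105 ± 12.7 FPKM and Was, an activator of actin branching, down from 77.0 ± 0.650 to 14.9 ± 1.68 FPKM. For MHC class I presentation, 3 of 8 rose (37.5%, beside 31.6% of all such genes) and 1, the activator Nlrc5, fell by 1.57. The median of 0.21 turned to -0.13 under quantile normalization and to -0.042 after length adjustment. Of the GIMAP GTPases, which support naive T cell survival, 3 of 5 fell and 1, Gimap6, rose, with a median of -0.33 that turned to 0.030 without scaling and was -0.73 after length adjustment. Gimap8 was at 243 and 224 FPKM in 2 non-TFH libraries and 34.1, 38.9 and 33.9 FPKM in TFH libraries. Of 14 long noncoding and microRNA genes beside 1 that passed only through non-TFH libraries, 5 fell and none rose. Neat1 was at 121, 119 and 124 FPKM in the non-TFH libraries and 18.1, 17.1 and 28.4 FPKM in the TFH libraries and Malat1 at 256, 268 and 242 FPKM in the non-TFH libraries and 257, 306 and 249 FPKM in the TFH libraries, and only the first of this pair of nuclear RNAs passed the threshold. Under quantile normalization Malat1 fell by 0.41.

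**Figure D5:**
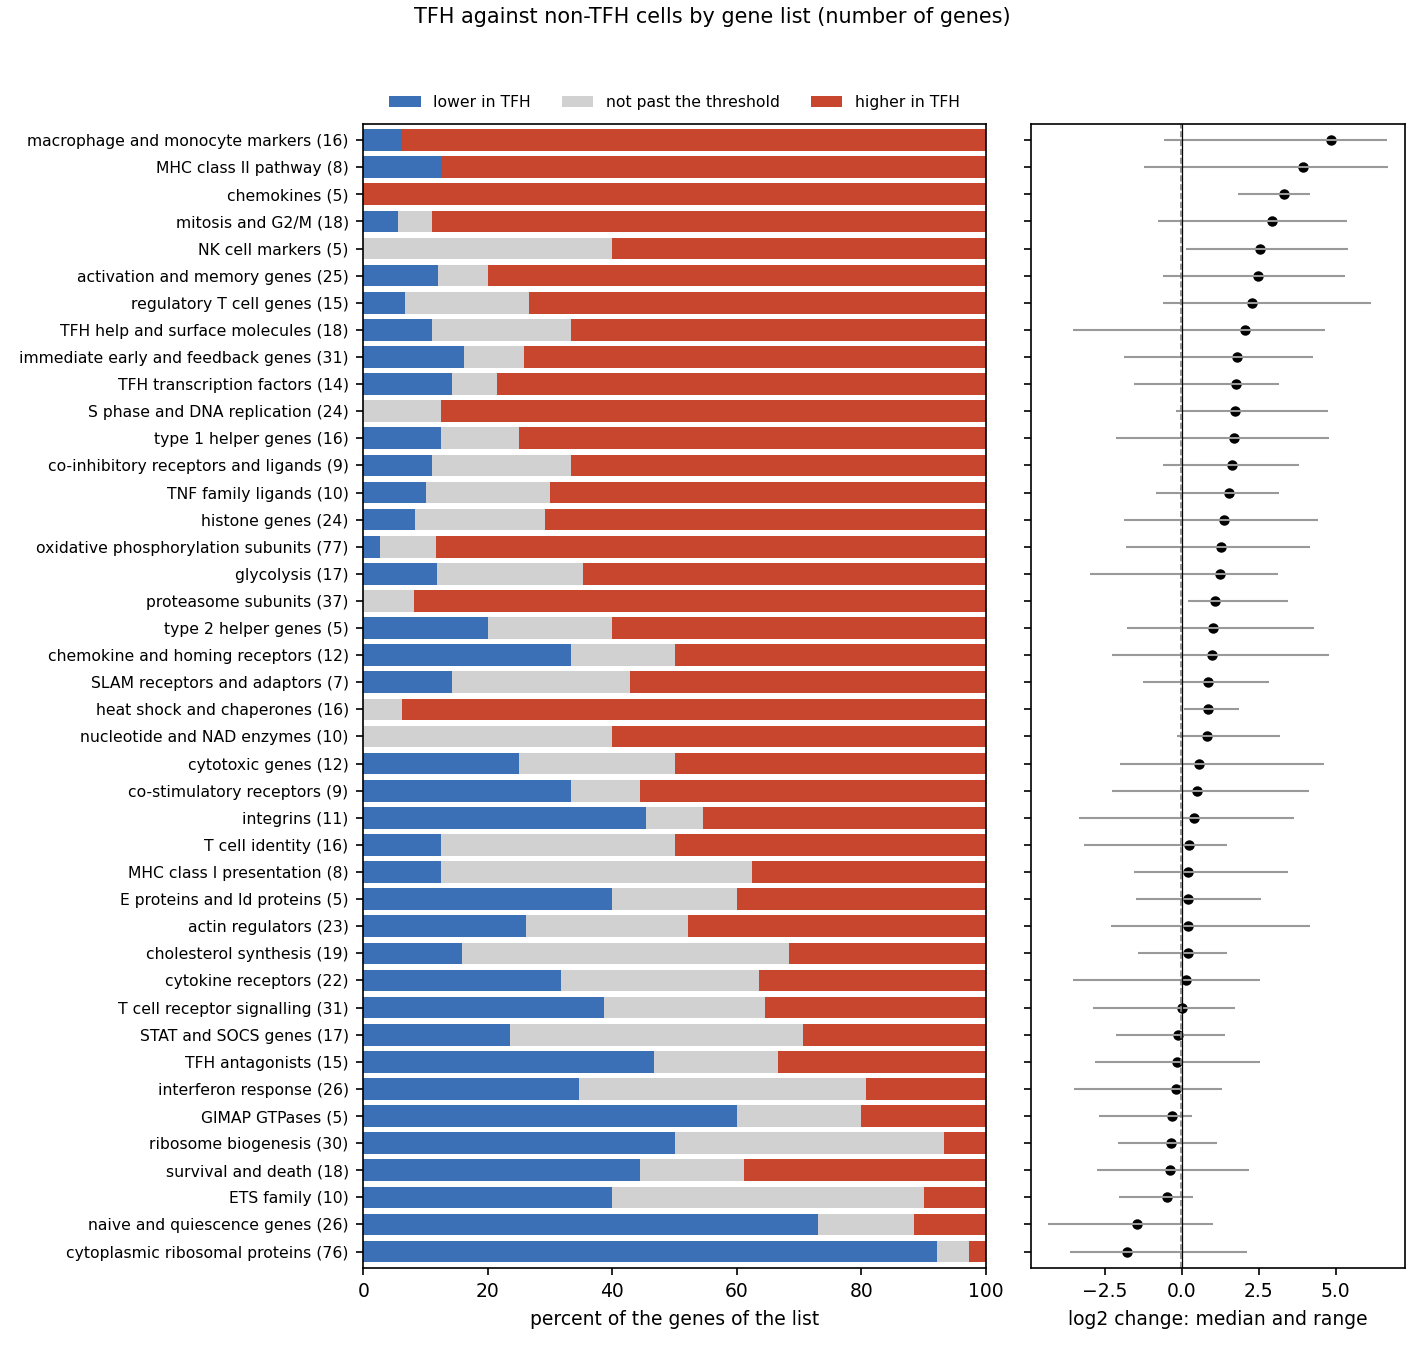
Left, percent of the genes of each list that were lower (blue), not past the threshold (grey) or higher (red) in WT TFH cells, with the number of genes in brackets, leaving out the gate genes Pdcd1 and Cxcr5 and genes that passed the filter through 1 group only. Right, median (point) and range (line) of their log2 changes, with the median of all such genes dashed. Naive genes and ribosomal proteins lie at the bottom with medians of -1.45 and -1.77, and macrophage markers at the top with 4.85.

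The most abundant transcripts also differed. In TFH cells the gene of highest level was Tmsb4x, which encodes an actin-binding peptide, at 10605, 9387 and 9373 FPKM against 4513 and 4515 FPKM in 2 non-TFH libraries. In non-TFH cells the joint Sumo2 entry came first and Eef1a1 was in the first 5. The entry that joins Rpl3 with a small nucleolar RNA was at 158150 FPKM in non-TFH library 2 and at 1334 and 1408 FPKM in the other two. Of the tested genes, 105 were listed at 0 in all non-TFH libraries and 61 in all TFH libraries. Those of highest level in the other group were Tceb2, Cox20 and Cd81 on the TFH side and 2010016I18Rik, Snora52 and Taf10 on the non-TFH side. Tceb2 and Taf10 belong to machinery that every cell uses, so that a 0 in these tables need not be a measurement and no fold is given. A further 187 genes were at 0 in 1 library and at 5 FPKM or more in another of the same group.

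The same comparison in the libraries labelled KO used separate libraries. In a fit to all 12 libraries 7486 of 11091 genes (67.5%) changed in WT mice and 7446 (67.1%) in KO mice. Of the WT changes 5940 were changed the same way in KO mice (79.3% of WT and 79.8% of KO changes), and 140 went the opposite way. The difference between the WT and KO changes passed the threshold for 1936 genes (17.5%), 1169 with a higher and 767 with a lower change in WT. Among the 18 transcription factors of the TFH list it did so for 10, although for Maf and Tox the call was lost under 13 and 17 of 23 alternatives. Bcl6 was not one of them: it rose by 2.12 in WT and 2.21 in KO mice, a difference of -0.087 (SE 0.18, adjusted p = 0.8). Both comparisons have their own control libraries. Pou2af1 rose by less in WT than in KO mice, 2.43 against 4.06 (difference -1.63, SE 0.21, adjusted p = 3.6e-04). Irf4 rose by 1.31 in WT mice, while its change of 0.038 in KO mice did not pass the threshold (difference 1.27, SE 0.29, adjusted p = 0.01).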

How the data were processed

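The series holds 12 poly(A)-selected, strand-specific RNA-seq libraries of sorted mouse splenic CD4 T cells, 3 for each of 4 groups, and 6 were compared here. The authors deposited 1 table per library with FPKM per gene, coordinates on mm10. The submitters' processing notes name FastQC, cutadapt, TopHat, Bowtie and Cufflinks tools, with no versions. Unnamed loci and failed rows were skipped. Symbols turned into dates by a spreadsheet (24) and 0 columns of other series were left out of use. Symbols listed together in 1 entry were kept as joint features. The table of WT non-TFH replicate 1 ended within chromosome X, and a missing value was left out of the fit for that gene, not imputed.

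FPKM were scaled by median ratios over 7664 genes (factors 0.871 to 1.14), filtered at 1 FPKM in at least 3 of 6 libraries, and tested as log2(FPKM + 1) with limma 3.58.1 in R 4.3.3 (trend and robust moderation, Benjamini-Hochberg adjustment over all genes tested). No count test was used, since FPKM are not counts. In data simulated on 9601 genes of this comparison the fit recovered 80.2% of 2-fold and 96.3% of 4-fold changes. Of its calls 6.71% and 6.59% were false. Each of 5 runs changed 200 well-expressed genes and drew normal noise of the same size for both groups. Scaling and the filter were left out there. In the data 67.5% of genes changed and TFH libraries varied more, so these rates need not hold for them. Depth (12000000 to 15500000 fragments) was estimated from the width of the confidence bounds at unnamed loci over 1500 bases. The difference between WT and KO changes came from 1 limma fit to all 12 libraries. Single values were compared by exact permutation. Other work used Python 3.11.15, pandas 2.3.3, numpy 2.4.6, scipy 1.17.1 and matplotlib 3.10.9. Transcript lengths came from GENCODE M21 and promoters from RefSeq.

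The comparison, the 56 gene lists and the rule for named genes were chosen with earlier results of these data known. Named genes are the gate genes, Ets1, the 12 largest rises and falls among genes above 0 in every library with a mean of at least 10 FPKM in the higher group, up to 4 called members per direction of each list with members that go against it, other list members as values, the 5 highest genes per group, and up to 3 genes listed at 0 in a whole group. Some genes are not reported here. Alternatives covered the pseudocount (0.1), the filter (none, 5 FPKM), the scaling, quantile normalization, array weights, plain moderation, a replicate block, joint features, chromosomes X and Y, all 12 libraries, leaving out each library and, added after the data were seen, transcript length. The main fit did not pair samples by replicate number, and the labels do not say whether equal numbers share a mouse.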

Additional observations from a re-analysis of the deposited data

Results flagged for a closer look

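The change between TFH and non-TFH cells differed between WT mice and mice labelled KO for 1936 of 11091 genes by the interaction term of limma. Among the gate genes and the transcription factors of the TFH list, 12 of 21 differed. Of the gate genes, Pdcd1 rose by less in WT mice (difference in log2 change -0.91), and Cd4, which did not pass the threshold in WT mice and fell in KO mice, differed by 0.89. The limma call for Cd4 was lost with array weights and without KO TFH replicate 2 (adjusted p up to 0.051), and that for Ascl2 with a pseudocount of 0.1 (adjusted p = 0.099). Those for Maf and Tox lay close to the threshold and were lost under 13 and 17 of 23 alternatives (adjusted p up to 0.10 and 0.13), most of them leaving out 1 library. Changes of 2 more genes were lower in WT mice: the difference was -1.25 for Ascl2 and -1.63 for Pou2af1. The change was higher in WT mice by 0.88 for Maf, 0.58 for Tox, 0.87 for Batf, 1.27 for Irf4, 1.42 for Id3 and 0.72 for Egr2. It was higher in WT mice by 1.01 for Ikzf3 and by 1.46 for Pou2f2, a pair whose levels in non-TFH cells were higher in KO than in WT mice, at 183 ± 22.8 against 53.4 ± 5.65 FPKM for Ikzf3 and 12.8 ± 2.07 against 4.49 ± 0.717 FPKM for Pou2f2 (SD, n = 3). Pou2af1 reached 134 ± 26.9 FPKM in KO TFH cells against 29.0 ± 2.11 FPKM in WT TFH cells (SD, n = 3).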

How the results depend on the processing

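Over 18 alternatives, the number of changed genes stayed between 5823 (filter at 5 FPKM) and 7486 (all 12 libraries), against 7028, and leaving out 1 library gave 5999 to 6284. The difference between WT and KO mice held for 1415 to 1967 genes over 23 alternatives. Deviations from the group mean showed no pairing by replicate number, with correlations of -0.040, -0.040 and 0.010 between same-numbered libraries. This does not tell whether equal numbers share a mouse. With a replicate block 6716 genes changed and 1415 differed between WT and KO mice. Medians of 14 lists and 2 genes that did not pass changed sign, and the cause was not tested. Under quantile normalization the median was -0.13 for T cell identity, -0.099 for secreted cytokines, -0.16 for cytokine receptors, -0.12 for E and Id proteins, -0.13 for MHC class I presentation and -0.041 for actin regulators, and Cd4 (-0.41) and Malat1 (-0.41) were lower. Without scaling it was 0.18 for TFH antagonists, 0.22 for STAT and SOCS genes, 0.34 for T cell receptor signalling, 0.15 for the interferon response and 0.030 for GIMAP genes. After length adjustment it was 0.038 for TFH antagonists, 0.20 for STAT and SOCS genes, 0.17 for T cell receptor signalling, -0.38 for E and Id proteins, -0.017 for cholesterol synthesis, -0.042 for MHC class I presentation and -0.047 for CD8 T cell markers. The median of CD8 T cell markers was -0.43 with the 5 FPKM filter, that of MHC class I presentation -0.024 with all 12 libraries, and that of stromal markers, 1 gene, between -1.28 (without WT non-TFH replicate 3) and 2.03 (without WT non-TFH replicate 1) as 1 library was left out. Depth limits genes near the filter, and no interval for counting error can be given for FPKM.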
